A study of Mus musculus with 9 samples.

Results

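The ribosomal protein genes of the cytosolic ribosome were followed through 3 groups of mouse embryoid body libraries. The members are the protein-coding genes of GENCODE M21 whose symbols are Rpl or Rps followed by the number of the protein and at most a short suffix, with Rplp0, Rplp1, Rplp2 and Rpsa, and without the S6 kinase genes. The rule found 83 of the 54232 gene IDs in the table, 51 of the large and 32 of the small subunit. Of these, 77 are the genes of the ribosome's standard proteins and 6 are paralogs with their own symbols, namely Rpl3l, Rpl7l1, Rpl10l, Rpl22l1, Rpl39l and Rps27l. All 83 passed the filter on low counts and were tested among 16168 genes. The rule itself uses no measured value to choose or drop a member, but it was set with earlier results of these data known.

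Each cytosolic ribosome is built from ribosomal RNA and a near-equal number of each ribosomal protein, so the genes are known to be kept at high and matched levels in growing cells such as embryonic stem cells. Their mRNAs start with a run of pyrimidines, the terminal oligopyrimidine (TOP) tract, through which mTOR and LARP1 control their translation, and many of the genes are targets of Myc. The spliced mRNAs have been copied back into the genome many times, so most of the genes have intronless processed pseudogenes of nearly the same sequence, and a read from a gene and from its copy can be hard to tell apart.

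The study followed wild-type mouse embryonic stem cells through embryoid body differentiation, in which aggregated cells leave the pluripotent state. The labels give 3 groups of 3 libraries, EBD2, EBD5 and EBD6, all wild-type and all labelled as embryonic stem cells under the differentiation of the same name, and the labels used here do not say what the number stands for. All groups share the genotype and the method, poly-A RNA made into libraries with a KAPA kit. Whether replicates came from separate cultures is not stated, and the p-values below therefore rest on a spread between libraries that may be technical alone.

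Library totals ran from 5453399 to 11703388 expected counts. EBD2 replicates 1 and 2, and EBD6 replicates 2 and 3, agreed within the sampling noise of their counts, so the libraries of each pair were added up and counted once, which leaves n = 2, 3 and 2 samples. Pou5f1, a pluripotency factor that defines the labelled cell type, was present in each group at 237, 233 and 302 CPM in EBD2, 241, 232 and 233 CPM in EBD5, and 199, 177 and 178 CPM in EBD6. The summed level of 8 visceral endoderm markers was 42.0 to 46.7 CPM in EBD2, 1523 to 1550.3 in EBD5 and 851 to 902 in EBD6, with Apoa4 listed at 0 in all EBD2 libraries. Cubn made up most of that sum in EBD5, at a mean of 4.06, 1125 and 406 CPM in EBD2, EBD5 and EBD6. In EBD6 against EBD5, 4 of the 8 markers rose and 3 fell, with a median log2 fold change of 0.42. CPM is the usual count scaled for depth, here with library sizes adjusted by trimmed mean of M-values (TMM). These are bulk samples, so fewer cells of a type and less RNA per cell cannot be told apart.

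Within the ribosomal protein genes, 2 libraries stood more than 1.5-fold apart from others of their own group in at least 12 members. They bear on several genes below, as does EBD2 replicate 3. EBD5 replicate 2 was more than 1.5 times from the mean of EBD5 replicates 1 and 3 in 14 of 83 members, 3 above (Rps16, Rps20 and Rps21) and 11 below, against 0.326% above and 0.595% below among 8909 genes at 20 CPM or more. EBD6 replicate 1 was above the mean of EBD6 replicates 2 and 3 by a median of 1.23-fold over the members and by more than 1.5-fold in 12 of them, against 0.620% of 9361 genes. Without EBD6 replicate 1 the calls of Rpl7a, Rpl7l1 and Rps24 in EBD6 against EBD2 and those of Rps14 and Rps28 in EBD6 against EBD5 were lost. No member lost a call without EBD5 replicate 2, and some gained one, among them Rps16, Rpl22, Rps15a, Rps26 and Rps28 in EBD5 against EBD2. EBD2 replicate 3 was above the mean of EBD2 replicates 1 and 2 by a median of 1.13-fold over the members. Over 8978 genes at 20 CPM or more that median was 1.01-fold, and 1 member passed 1.5-fold above. Leaving out EBD2 replicate 3 ended 19 calls over the 3 comparisons.

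As a group, the members took more of the library in EBD5 than in either other group. Their share of the counts was 1.37%, 1.40% and 1.57% in the EBD2 libraries, 2.18%, 2.04% and 2.17% in the EBD5 libraries, and 1.3%, 1.10% and 1.11% in the EBD6 libraries. No EBD5 library overlapped with an EBD2 or EBD6 library. The means were 1.48% ± 0.131 (SD, n = 2), 2.13% ± 0.0789 (n = 3) and 1.21% ± 0.137 (n = 2), so the EBD5 share was 1.44 times that of EBD2 and 1.76 times that of EBD6. No p is given for the share, since even 3 libraries against 3 cannot go below an exact permutation p of 0.1.

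The share of the processed pseudogene copies of these genes differed more. Over 1812 copies, found by sequence for 81 of the 83 members, it was 0.0393% to 0.0572% in EBD2, 0.232% to 0.234% in EBD5 and 0.0376% to 0.0452% in EBD6, so the mean in EBD5 was 4.67 times that in EBD2 and 5.84 times that in EBD6. Other classes of RNA stood highest in EBD5 too. In the order EBD2, EBD5 and EBD6, processed pseudogenes of all other genes took 0.257%, 0.895% and 0.161% of the counts on average, nuclear ribosomal RNA genes 0.0196%, 0.773% and 0.0228%, and mitochondrially encoded protein genes 0.122%, 0.568% and 0.0653%. Genes of the mitochondrial ribosome took 0.427%, 0.363% and 0.424%, lowest in EBD5. The part of these classes in the levels of the members was not tested.

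**Figure D1:**
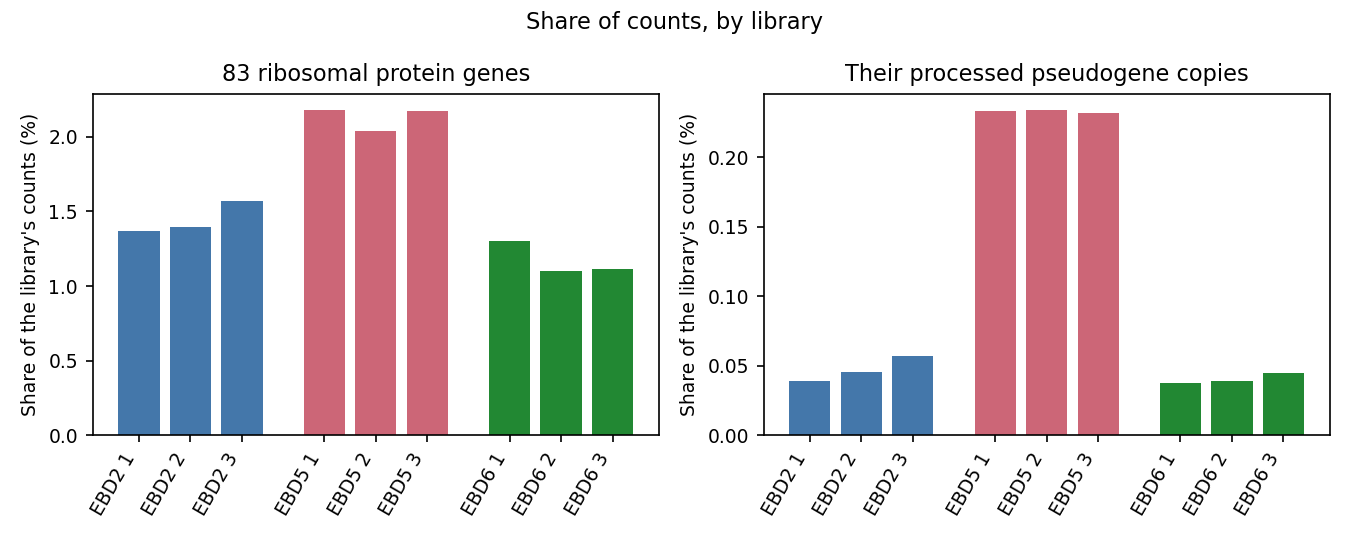
Share of each library's counts, in percent, in the 83 ribosomal protein genes (left) and in their processed pseudogene copies (right). Each bar is 1 library, coloured by group. The EBD5 bars stand above the others in both panels, at 2.04% to 2.18% on the left and 0.232% to 0.234% on the right.

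Most ribosomal protein genes were higher in EBD5 than in EBD2. By edgeR's quasi-likelihood test with Benjamini-Hochberg adjustment over all tested genes, 56 of 83 members (67.5%) rose, against 34.9% of all tested genes, and 8 (9.64%) fell, against 35.1%. The other 19 were not called. The median log2 fold change of the members was 0.73, a 1.66-fold difference, beside -0.01 over all genes. Both subunits took part, with 34 of 51 large and 22 of 32 small subunit genes higher, and 30 of the 56 rose at least 2-fold. The share of all tested genes called at least 2-fold apart was not counted, here and below.

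Rpl24, a large subunit protein whose mutation causes the Belly spot and tail mouse, had the largest fitted rise. It was counted at 5.47, 3.79 and 1.60 CPM in EBD2, 43.7, 21.3 and 44.5 CPM in EBD5, and 2.85, 2.19 and 2.67 CPM in EBD6. All 3 EBD5 libraries were above all EBD2 libraries, and EBD5 replicate 2 was the lowest of them. The log2 fold change was 3.34 ± 0.38 (adjusted p = 1.6e-05, edgeR), where ± gives the standard error of the fit, here and below. The gene was among the lowest of the standard members per length in EBD2.

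Rps7, a small subunit protein that is also known to bind Mdm2, stood at 11.8, 14.2 and 18.2 CPM in EBD2, 87.7, 92.2 and 92.5 CPM in EBD5, and 19.4, 11.8 and 13.7 CPM in EBD6. The EBD5 libraries were close together and far above both other groups. Its log2 fold change was 2.59 ± 0.16 (adjusted p = 1.6e-07, edgeR). Rpl7a, a large subunit protein, was at 77.8, 76.9 and 84.2 CPM in EBD2, 424, 440.4 and 408 CPM in EBD5, and 66.9, 70.6 and 72.5 CPM in EBD6, with no overlap, and rose by 2.39 ± 0.07 (adjusted p = 8.6e-10, edgeR). It was the member with the most processed copies, 149.

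Rpl26, which lies near the exit of the peptide tunnel, was measured at 102, 98.3 and 111 CPM in EBD2, 508, 495 and 489 CPM in EBD5, and 115, 94.3 and 95.8 CPM in EBD6. It rose by 2.23 ± 0.09 on the log2 scale (adjusted p = 5.9e-09, edgeR), and the EBD6 libraries were back near the EBD2 libraries. Rpl32 rose by 2.14 ± 0.13 and Rps3a1 by 2.09 ± 0.16. For Rpl32 the libraries read 51.8, 63.5 and 61.4 CPM in EBD2, 272, 244 and 275 CPM in EBD5, and 110.2, 71.8 and 80.1 CPM in EBD6, so EBD6 kept part of the difference. For Rps3a1 they read 73.7, 73.9 and 95.1 CPM in EBD2, 383, 308 and 379 CPM in EBD5, and 89.7, 62.5 and 62.6 CPM in EBD6. Behind these 6 genes came Rpl39, Rps4x, Rps23, Rps10 and Rpl10, with log2 fold changes from 1.84 to 2.09.

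Fewer genes fell in EBD5, 8 in all. Among them were the paralogs Rpl39l, Rpl3l and Rpl10l, which with Rps21 fell by far more than the rest. The other 5 were Rps21, Rpl12, Rpl13a, Rps12 and Rpl14. Rps21, a small subunit protein, was at 124, 138 and 158 CPM in EBD2, 5.85, 36.5 and 9.98 CPM in EBD5, and 145, 106 and 106 CPM in EBD6. No EBD5 library reached the lowest EBD2 or EBD6 library, but EBD5 replicate 2 was well above the other EBD5 libraries. Its log2 fold change was -3.02 ± 0.40 (adjusted p = 4.5e-05, edgeR), and the call held when any 1 library was left out.

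Rpl12, at the base of the ribosomal stalk, was at 431, 423 and 549.7 CPM in EBD2, 307, 338 and 279.5 CPM in EBD5, and 329, 294 and 293 CPM in EBD6, all EBD5 libraries below all EBD2 libraries. The difference was -0.67 ± 0.11 on the log2 scale (adjusted p = 2.3e-04, edgeR). Rpl13a, which is also known to take part in silencing inflammatory mRNAs, was at 424, 448 and 488 CPM in EBD2, 375, 335 and 387 CPM in EBD5, and 354, 314 and 318 CPM in EBD6, a difference of -0.35 ± 0.08 (adjusted p = 0.0035, edgeR). The EBD5 libraries of Rpl13a, too, were all below those of EBD2. Rpl14 was at 279.8, 295 and 320.4 CPM in EBD2, 248, 264 and 238 CPM in EBD5, and 211, 192 and 192 CPM in EBD6, a difference of -0.29 ± 0.07. Rps12 was at 388, 393 and 417 CPM in EBD2, 319, 355 and 323 CPM in EBD5, and 237, 185 and 184 CPM in EBD6, a difference of -0.29 ± 0.10. The falls of Rpl12, Rpl13a and Rpl14 did not survive adding the counts of their pseudogene copies, as given below, and that of Rps12 was lost without EBD2 replicate 3, EBD5 replicate 1 or EBD5 replicate 3. That of Rpl14 was also lost without EBD2 replicate 3.

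**Figure D2:**
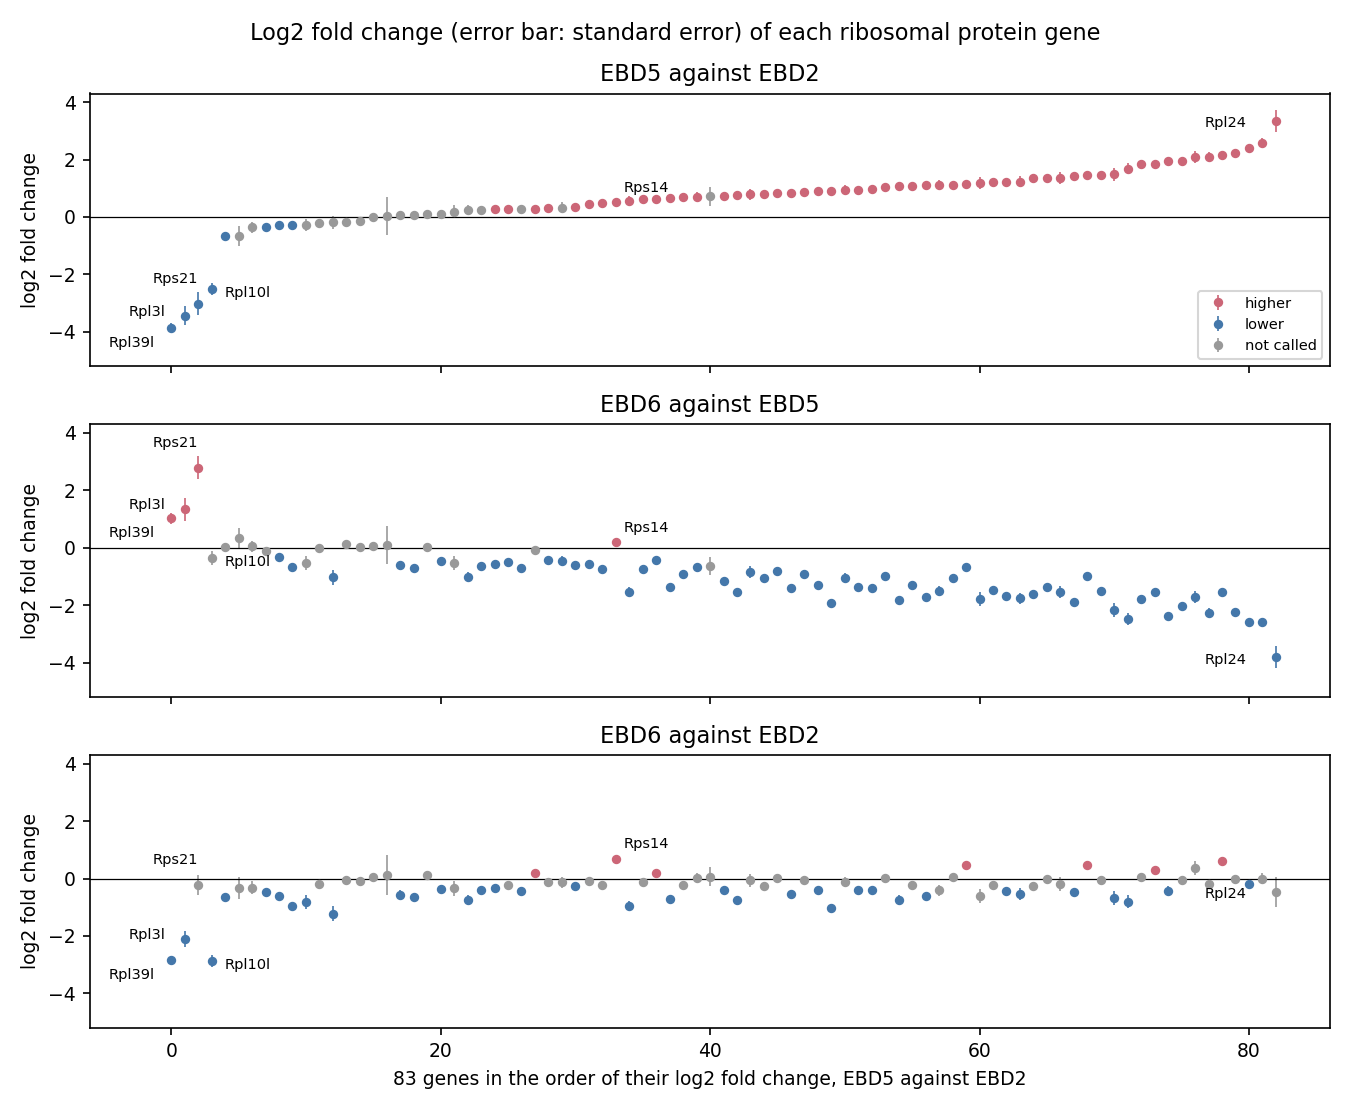
Log2 fold change of each of the 83 genes in 3 comparisons, with the standard error as a bar and the call of the edgeR test as the colour. Genes stand in the same order in each panel, from Rpl39l (-3.86) to Rpl24 (3.34) in EBD5 against EBD2, and 3 paralogs and Rps21 lie far below the rest at the left of the top panel.

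The paralogs did not move together. Rpl39l, Rpl10l and Rpl3l are known from testis (Rpl39l and Rpl10l) and from heart and skeletal muscle (Rpl3l), where they stand in for Rpl39, Rpl10 and Rpl3. Rpl22l1, Rps27l and Rpl7l1 are broadly expressed relatives of Rpl22, Rps27 and Rpl7. How far counting can separate a paralog from its relative depends on how much they differ, so stretches of 2 pairs are shown, with the bases that differ in capitals. Each stretch was picked as the 90 bases with the most differences found, so the rest of the coding sequence differs less. In these stretches 18 of 90 bases differ between Rpl39 and Rpl39l, and 20 of 90 between Rpl10 and Rpl10l. The sequences are from the GENCODE M21 transcripts of build GRCm38 (mm10), 5′ to 3′ on the coding strand. Rpl39 lies at chrX:37082520-37085402 on the minus strand, Rpl39l at chr16:10170226-10174911 on the plus strand, Rpl10 at chrX:74270812-74273135 on the plus strand and Rpl10l, which has 1 exon, at chr12:66283379-66284401 on the minus strand. For Rpl39 and Rpl39l, bases 58 to 147 of the coding sequence are given, and for Rpl10 and Rpl10l bases 304 to 393.
Rpl39: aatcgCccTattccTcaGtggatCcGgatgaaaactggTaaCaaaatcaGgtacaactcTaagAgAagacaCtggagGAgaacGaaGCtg
Rpl39l: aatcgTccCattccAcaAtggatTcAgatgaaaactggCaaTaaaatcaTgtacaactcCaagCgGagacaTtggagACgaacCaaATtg
Rpl10: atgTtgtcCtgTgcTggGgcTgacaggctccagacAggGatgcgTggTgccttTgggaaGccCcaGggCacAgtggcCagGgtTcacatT
Rpl10l: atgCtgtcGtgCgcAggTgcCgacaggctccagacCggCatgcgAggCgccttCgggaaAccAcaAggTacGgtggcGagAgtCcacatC
Over the whole coding sequence, Rpl39 and Rpl39l were identical in 130 of 153 bases (85.0%) and Rpl10 and Rpl10l in 544 of 642 (84.7%). Rpl3 and Rpl3l shared 74.1% of the aligned bases, Rpl22 and Rpl22l1 69.4%, Rps27 and Rps27l 76.2%, and Rpl7 and Rpl7l1 54.4%. No processed copy was found for Rpl39l or Rpl3l, and 1 for Rpl10l.

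Rpl39l was at 31.6, 34.7 and 35.4 CPM in EBD2, 2.19, 2.56 and 2.30 CPM in EBD5, and 4.81, 5.01 and 4.61 CPM in EBD6. Its EBD5 level was the lowest of the groups and its EBD6 level was only partly back, and no library of one group overlapped with another group. It fell by 3.86 ± 0.15 on the log2 scale in EBD5 against EBD2 (adjusted p = 5.8e-09, edgeR) and was still lower in EBD6 than in EBD2, a difference of -2.83 ± 0.14 (adjusted p = 2.5e-08, edgeR). Rpl39 moved the other way and was at 45.7, 46.7 and 52.7 CPM in EBD2, 237, 140.1 and 252 CPM in EBD5, and 70.1, 57.1 and 60.9 CPM in EBD6, a rise of 2.09 ± 0.22 in EBD5 against EBD2 (adjusted p = 8.1e-06, edgeR). EBD5 replicate 2 was lower than the other EBD5 libraries in Rpl39 and not in Rpl39l.

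Rpl10l was at 26.5, 26.8 and 26.3 CPM in EBD2, 5.30, 5.45 and 3.26 CPM in EBD5, and 2.50, 4.01 and 4.12 CPM in EBD6. The EBD5 and EBD6 libraries overlapped, and their log2 difference of -0.36 ± 0.25 was not called (adjusted p = 0.22, edgeR). Against EBD2 the differences were -2.50 ± 0.20 in EBD5 and -2.86 ± 0.21 in EBD6 (adjusted p = 1.1e-06 and 5.7e-07, edgeR). Rpl10, a late-joining large subunit protein, was at 107, 103 and 113 CPM in EBD2, 404, 372 and 399.9 CPM in EBD5, and 116, 110.0 and 108 CPM in EBD6 and rose by 1.84 ± 0.07 in EBD5 (adjusted p = 4.4e-09, edgeR).

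Rpl3l was low throughout, at 7.18, 8.56 and 8.01 CPM in EBD2, 0.731, 0.682 and 0.768 CPM in EBD5, and 1.07, 2.46 and 1.86 CPM in EBD6, and still fell by 3.44 ± 0.33 in EBD5 (adjusted p = 4.4e-06, edgeR), while Rpl3 rose by 0.98 ± 0.10 (adjusted p = 5.4e-06, edgeR). Markers of cardiac muscle, in which Rpl3l is known, summed to at most 18.6 CPM in any library, and 1 of the 4 tested rose and 1 fell in EBD5 against EBD2. Rpl3 itself was at 352, 354 and 446 CPM in EBD2, 767, 831 and 773 CPM in EBD5, and 312, 288 and 291 CPM in EBD6, highest in EBD5 and without overlap with EBD2. The cardiac markers stayed low in all groups. Myh6, the marker that fell, was at a mean of 9.26, 3.19 and 2.83 CPM in EBD2, EBD5 and EBD6. Actc1, the marker that rose, was at 0.898, 2.73 and 3.47 CPM. The part of the cardiac markers in the level of Rpl3l was not tested.

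The other paralogs went with the majority in EBD5 against EBD2, but Rpl7l1 was not called in EBD6 against EBD5. Rpl22l1 was at 35.8, 36.4 and 39.2 CPM in EBD2, 108, 70.1 and 114 CPM in EBD5, and 42.8, 27.9 and 27.0 CPM in EBD6 and rose by 1.37 ± 0.21 in EBD5 against EBD2 (adjusted p = 1.7e-04, edgeR). Rpl22, an RNA-binding protein of the large subunit, was at 337, 367 and 396 CPM in EBD2, 459.8, 418 and 473 CPM in EBD5, and 328, 253 and 248 CPM in EBD6 and was not called (0.26 ± 0.11, adjusted p = 0.052, edgeR). The pair thus had its highest values in EBD5, with EBD5 replicate 2 lower than the others in Rpl22l1.

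Rps27l was at 69.8, 73.4 and 68.0 CPM in EBD2, 128, 117 and 129 CPM in EBD5, and 82.6, 62.7 and 64.9 CPM in EBD6 and rose by 0.82 ± 0.10. Rps27 was at 74.1, 74.7 and 85.8 CPM in EBD2, 131, 117 and 141 CPM in EBD5, and 81.3, 58.9 and 60.9 CPM in EBD6 and rose by 0.69 ± 0.12, so both genes of the pair were highest in EBD5. Rpl7l1 was at 155, 149 and 166 CPM in EBD2, 195, 185 and 201 CPM in EBD5, and 189.6, 179.8 and 175 CPM in EBD6, a small rise of 0.28 ± 0.07. Rpl7, a protein of the large subunit, was at 259, 266 and 292 CPM in EBD2, 608, 735 and 622 CPM in EBD5, and 216, 195 and 194 CPM in EBD6, a rise of 1.23 ± 0.10. The difference between a paralog and its relative was not itself tested.

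**Figure D3:**
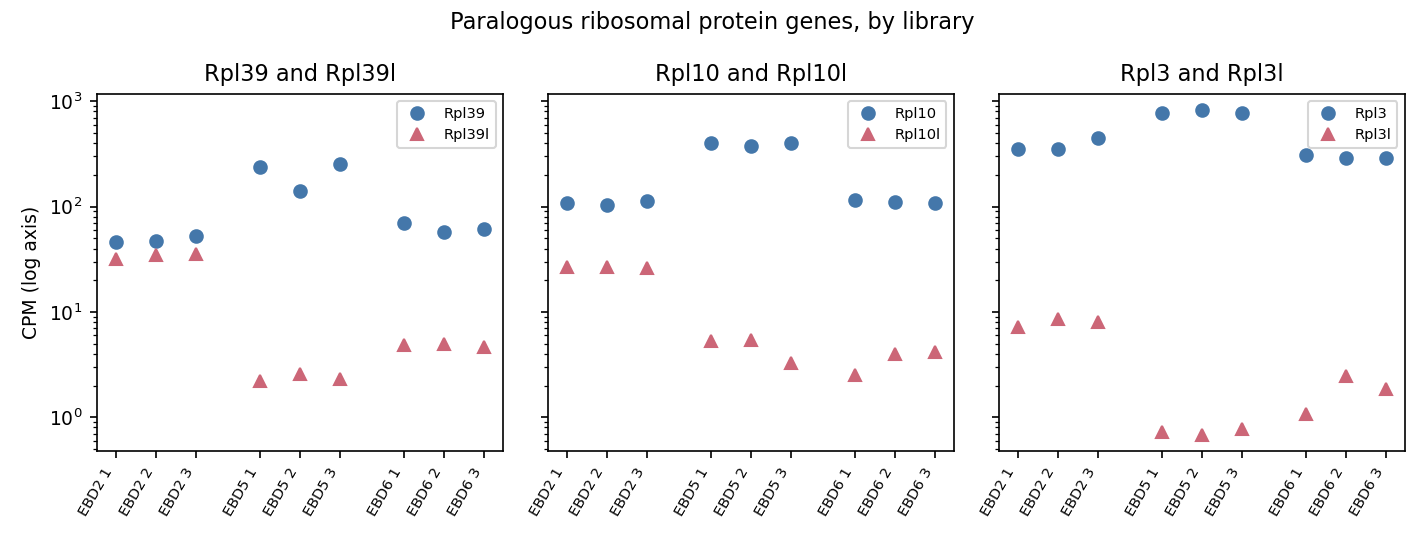
CPM, on a log axis, of 3 standard genes (circles) and their paralogs (triangles) in each library. In EBD5 the circles are above and the triangles below their EBD2 values, with Rpl39l at 31.6 to 35.4 CPM in EBD2 and 2.19 to 2.56 CPM in EBD5.

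Many processed pseudogene copies of the members were far higher in EBD5 than in EBD2. Among the 1812 copies, 85 passed the filter on low counts, and 69 of these rose and 7 fell in EBD5 against EBD2, with a median log2 fold change of 3.59. The filter keeps copies that are high in any group, so this median describes only those 85. Among 668 tested processed pseudogenes of other genes, 521 rose and 66 fell, with a median of 3.22. Of 7 tested protein-coding copies outside the rule, 6 rose. One was Rpl36al, a retrocopy of Rpl36a, at 18.5, 19.1 and 20.3 CPM in EBD2, 65.0, 81.8 and 63.7 CPM in EBD5, and 29.6, 15.5 and 16.5 CPM in EBD6, with no overlap between EBD2 and EBD5. Rpl36a was at 87.2, 83.8 and 105 CPM in EBD2, 199, 151 and 195 CPM in EBD5, and 109, 73.5 and 69.7 CPM in EBD6 and rose by 0.94 ± 0.17, beside 1.85 ± 0.21 for Rpl36al.

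The copy with the most counts was Gm10275, a copy of Rpl12 on chromosome 10, at 3.76, 3.62 and 7.48 CPM in EBD2, 299, 429 and 276 CPM in EBD5, and 1.43, 3.73 and 7.03 CPM in EBD6. Its log2 fold change was 6.06 ± 0.32 in EBD5 against EBD2 (adjusted p = 4.7e-08, edgeR). No EBD2 or EBD6 library came near the EBD5 libraries. The next copy was Rpl14-ps1, at 21.0, 33.1 and 41.1 CPM in EBD2, 180.5, 193 and 172 CPM in EBD5, and 7.49, 7.47 and 9.21 CPM in EBD6. Rps15a-ps7 was at 0.513, 0.988 and 0.356 CPM in EBD2, 128, 118 and 139.9 CPM in EBD5, and 0.535, 0.455 and 0.727 CPM in EBD6, so that it was nearly absent outside EBD5. Rpl3-ps1 stood at 122, 111 and 113 CPM in the EBD5 libraries, against 6.42 to 9.08 in EBD2, and Rps3a3, a copy of Rps3a1, at 99.6, 104 and 111 CPM against 41.6 to 54.1. All 5 copies were higher in every EBD5 library than in any other library.

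The sequences show how little there is to tell a read of a copy from one of its gene. Rpl12 (chr2:32961559-32965345, plus strand, 7 exons) and Gm10275 (chr10:29698746-29699380, minus strand, 1 exon) were identical in all 495 bases of the coding sequence, so the first 90 bases stand once for both. Rps15a (chr7:118104372-118116188, minus strand) and Rps15a-ps7 (chr2:152185291-152185682, minus strand) differed in 4 of 389 aligned bases, 2 of them, in capitals, in the first 90. These are GENCODE M21 sequences of build GRCm38, 5′ to 3′.
Rpl12 and Gm10275: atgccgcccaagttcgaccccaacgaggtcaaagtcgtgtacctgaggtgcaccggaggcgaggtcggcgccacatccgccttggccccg
Rps15a: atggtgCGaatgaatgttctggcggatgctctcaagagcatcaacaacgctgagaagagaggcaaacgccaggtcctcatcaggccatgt
Rps15a-ps7: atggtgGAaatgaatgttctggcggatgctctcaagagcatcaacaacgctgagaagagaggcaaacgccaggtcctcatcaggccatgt
Rps16-ps2, Rpl36a-ps2 and Gm15500, the leading copies of Rps16, Rpl36a and Rpl5, were also identical to the coding sequence of their genes (438, 318 and 891 bases). A read inside such a stretch fits both places, and RSEM shares it between them by an estimate, so the split between gene and copy is uncertain.

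The counts of each gene were also added to those of its copies. In EBD5 the copies held 64.4% of the summed counts of Rpl24 and its copies, 61.3% for Rps16, 52.2% for Rpl12, 43.9% for Rps15a, 43.7% for Rps7 and 42.1% for Rpl14. They held over 10% in 30 members in EBD5, in 9 in EBD2 and in 10 in EBD6, and the median over members was 4.06%, 2.12% and 1.64% in EBD5, EBD2 and EBD6. With the copies added, 64 members were higher and 5 lower in EBD5 against EBD2, so 9 calls changed.

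Rpl12 turned from a fall to a rise, 0.38 ± 0.14 with its copies (adjusted p = 0.028, edgeR), although EBD2 replicate 3 then lay among the EBD5 libraries, and Rpl14 likewise, 0.35 ± 0.08 (adjusted p = 0.0022, edgeR). Rpl13a was no longer called, at -0.10 ± 0.08 (adjusted p = 0.29, edgeR). Rps15a went from 0.28 ± 0.12, not called, to 1.0 ± 0.12, and Rps16 from 0.03 ± 0.67 to 1.28 ± 0.36. Rpl22, Rpl27a, Rpl34 and Rps20 also became called as higher. Rps21 stayed lower with its 4 copies added, at -2.52 ± 0.38 (adjusted p = 1.1e-04, edgeR), as did the 3 paralogs with few or no copies and Rps12. The rise of Rpl24 was 3.13 ± 0.19 with copies and that of Rps7 2.94 ± 0.14.

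**Figure D4:**
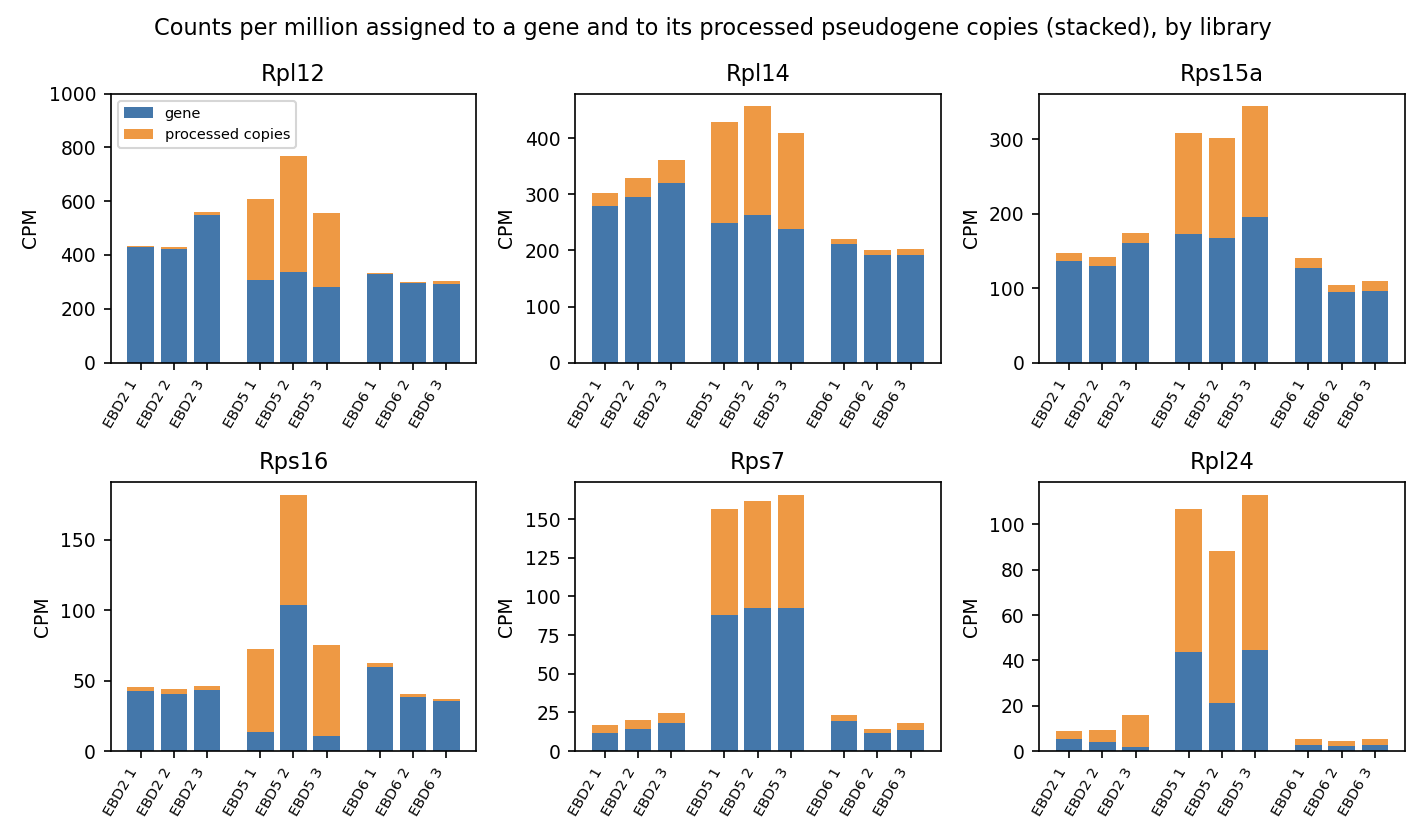
CPM assigned to 6 genes (blue) and, stacked on top, to all their processed pseudogene copies (orange), in each library. The orange part is tallest in the EBD5 libraries. For Rpl12 and Rpl14 the blue part is lower in EBD5 than in EBD2 while the whole bar is higher, except that EBD2 replicate 3 of Rpl12 is level with the EBD5 bars.

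The number of copies per member is set beside the calls as a description. Of the 29 members with 20 or more copies, 24 were higher in EBD5 than in EBD2 (median log2 fold change 0.90), and of the 31 with 10 to 19 copies, 24 (median 0.94). Of the 18 with 2 to 9 copies 8 were higher (median 0.26), and of the 5 with 0 or 1 copies none, with 3 lower, namely the paralogs Rpl3l, Rpl10l and Rpl39l. Rpl8 was among those not called. Across the 83 members the rank correlation of the number of copies with the log2 fold change was 0.379 in EBD5 against EBD2 and -0.424 in EBD6 against EBD5, 2 comparisons that share the EBD5 libraries, and -0.00231 in EBD6 against EBD2. Genes are not independent replicates, so no p is given.

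In EBD6 most members were lower than in EBD5. The edgeR test called 64 of 83 (77.1%) lower, against 33.3% of all tested genes, and 4 (4.82%) higher, against 36.9%, with a median log2 fold change of -0.99 beside 0.04 over all genes. Of the 64, 40 fell at least 2-fold, and 54 were among the 56 that were higher in EBD5 than in EBD2. Both comparisons rest on the same EBD5 libraries. The share of all tested genes that were higher in EBD5 than in both other groups was not counted. The largest falls were those of Rpl24 (-3.82 ± 0.38), Rpl7a (-2.60 ± 0.07), Rps7 (-2.60 ± 0.16), Rpl35 (-2.49 ± 0.21), Rps23 (-2.36 ± 0.13) and Rps3a1 (-2.27 ± 0.16).

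Rpl35, at the exit of the peptide tunnel, was at 45.0, 45.1 and 42.0 CPM in EBD2, 149, 133 and 144 CPM in EBD5, and 38.5, 19.7 and 17.5 CPM in EBD6. The EBD6 libraries lay below the EBD2 libraries too, and EBD6 replicate 1 was well above the other EBD6 libraries. Rps23, a protein of the decoding centre, was at 84.3, 84.9 and 108 CPM in EBD2, 348, 399 and 356 CPM in EBD5, and 84.5, 59.8 and 63.9 CPM in EBD6. A further 10 members fell in EBD6 against EBD5 without being called higher in EBD5 than in EBD2. Among them were Rpl4, Rpl14, Rpl22, Rpl23, Rpl27a, Rps12, Rps15a, Rps26 and Rps28, of which Rps28 overlapped between the EBD5 and EBD6 samples. The call of Rps28 was lost without EBD2 replicate 3, EBD5 replicate 1, EBD5 replicate 3, EBD6 replicate 1 or EBD6 replicate 3.

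Against this, 4 members rose from EBD5 to EBD6. Rps21 rose by 2.79 ± 0.40 (adjusted p = 7.9e-05, edgeR), and its EBD6 libraries did not pass the test against EBD2 (-0.23 ± 0.34). Rpl39l rose by 1.03 ± 0.19 and Rpl3l by 1.33 ± 0.39, a call of Rpl3l that DESeq2 did not make. The last was Rps14, a small subunit protein needed for red cell formation, at 159.6, 158 and 172 CPM in EBD2, 221, 243 and 243 CPM in EBD5, and 273, 256 and 266 CPM in EBD6. Its libraries did not overlap between groups, but the difference of 0.19 ± 0.07 was small (adjusted p = 0.025, edgeR) and was lost without EBD5 replicate 1 or EBD6 replicate 1 and with DESeq2. It turned negative when copies were added or when GC content and length were allowed for.

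EBD6 also lay below EBD2 for many members, by less. The edgeR test called 35 of 83 (42.2%) lower, against 32.3% of all tested genes, and 7 (8.43%) higher, against 33.8%, with a median log2 fold change of -0.24 beside 0.01 over all genes. Only 5 of the 35 fell at least 2-fold, the paralogs Rpl10l (-2.86), Rpl39l (-2.83) and Rpl3l (-2.11), then Rpl23 (-1.23) and Rps6 (-1.03). Without EBD2 replicate 3 the count of lower genes was 21, and without EBD6 replicate 1 it was 43.

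Rpl23 was at 356, 349 and 507 CPM in EBD2, 435, 242 and 457 CPM in EBD5, and 212, 152 and 165 CPM in EBD6, with EBD5 replicate 2 far below the other EBD5 libraries. It fell by 1.23 ± 0.27 in EBD6 against EBD2 (adjusted p = 0.0018, edgeR). Rps6, the protein phosphorylated by the S6 kinases, was at 142, 148 and 220.4 CPM in EBD2, 349, 320.3 and 346 CPM in EBD5, and 97.7, 85.5 and 78.1 CPM in EBD6, highest in EBD5 and lowest in EBD6. Its difference in EBD6 against EBD2 was -1.03 ± 0.16 (adjusted p = 1.8e-04, edgeR). EBD2 replicate 3 was well above its group in this gene.

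Rpl17, whose protein lines the exit tunnel, had 78 processed copies and was at 236, 232 and 304 CPM in EBD2, 420.1, 370.4 and 404 CPM in EBD5, and 169.9, 108 and 112 CPM in EBD6, and fell by 0.97 ± 0.17 in EBD6 against EBD2 (adjusted p = 5.1e-04, edgeR). The 7 members higher in EBD6 than in EBD2 were Rps14, Rpl32, Rpl18, Rpl37a, Rps10, Rpl7l1 and Rpl13, by 0.69 to 0.19 on the log2 scale. Of these, Rpl7l1 was not called without EBD6 replicate 1 (0.18, adjusted p = 0.062, edgeR), and Rpl37a not without EBD2 replicate 3 (0.45, adjusted p = 0.054, edgeR). The call of Rpl13 was lost under 10 of 22 alternatives, among them without EBD5 replicate 1, EBD5 replicate 3 or EBD6 replicate 2. Rps14 led them, at 0.69 ± 0.07 (adjusted p = 9.7e-06, edgeR). Rps10 was at 40.4, 41.0 and 43.8 CPM in EBD2, 161, 147 and 147 CPM in EBD5, and 53.5, 50.5 and 52.3 CPM in EBD6, and its EBD6 libraries were all above those of EBD2. Rpl18 was at 106, 105 and 115 CPM in EBD2, 251, 237 and 242 CPM in EBD5, and 162, 146 and 144 CPM in EBD6. Rpl37a was at 55.1, 48.4 and 50.4 CPM in EBD2, 152, 126 and 144 CPM in EBD5, and 83.6, 64.2 and 59.3 CPM in EBD6. In both genes EBD5 was highest and EBD6 in between. Rpl13 was at 128, 133 and 149.5 CPM in EBD2, 221, 206 and 223 CPM in EBD5, and 158, 161 and 160.0 CPM in EBD6, in the same order. Of the 7, 5 were higher in EBD5 than in both other groups as well, and 29 of the 54 members with that pattern did not pass the test between EBD6 and EBD2.

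Per kilobase of coding sequence, the members' levels were spread widely. The counts come from whole transcripts, untranslated parts included, but were divided by the coding length alone. This scale therefore raises members with a very short coding sequence, and their places in it are partly set by the divisor. The median was 293 CPM per kb in EBD2, 485 in EBD5 and 251 in EBD6. Rpl41, which encodes the shortest of the proteins, was highest in each group, at 1661 ± 177 (SD, n = 2), 4619.8 ± 666 (n = 3) and 1096 ± 526 (n = 2) CPM per kb, and Rpl3l was lowest in each. In EBD5, Rps24 (1352 ± 345), Rpl39 (1347 ± 392), Rps26 (1178 ± 158), Rpl22 (1152 ± 74.9) and Rpl26 (1124 ± 22.9 CPM per kb) followed, and these 5 do not differ beyond their spread. Rpl26 had been in place 53 of 83 in EBD2. The standard genes lowest in EBD5 were Rps21 (68.7 ± 65.4), Rpl24 (76.2 ± 27.6), Rps16 (95.2 ± 118) and Rpl27 (110.1 ± 17.1 CPM per kb), whose spreads overlap.

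Among the 83, 10 members passed no test in any comparison. Of these, Rpl8, Rpl27, Rpl34 and Rplp1 had log2 fold changes from -0.21 to -0.01 in EBD5 against EBD2. Rpl8, which binds the ribosomal RNA near the peptidyl transferase centre, was at 438, 467 and 555 CPM in EBD2, 463, 419 and 434 CPM in EBD5, and 443, 423 and 436 CPM in EBD6. Apart from EBD2 replicate 3 at the top, its libraries lay close together across the groups. Rpl27 was at 39.3, 40.7 and 53.4 CPM in EBD2, 41.1, 54.0 and 42.0 CPM in EBD5, and 51.7, 47.8 and 41.0 CPM in EBD6. Rpl34 was at 79.5, 81.5 and 87.4 CPM in EBD2, 76.5, 72.4 and 81.6 CPM in EBD5, and 92.2, 66.5 and 69.6 CPM in EBD6, also with little difference between groups.

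In Rps16, Rps20, Rps29, Rpl37 and Rplp2 the EBD5 libraries differed among themselves. Rps16 was at 42.4, 40.5 and 43.3 CPM in EBD2, 13.7, 103 and 10.6 CPM in EBD5, and 59.9, 38.2 and 35.2 CPM in EBD6, so EBD5 replicate 2 was above all other libraries and the other EBD5 libraries below all of them. Rplp2, of the ribosomal stalk, went the other way, at 171, 169 and 154 CPM in EBD2, 130.4, 38.2 and 144 CPM in EBD5, and 149, 114 and 113 CPM in EBD6, with EBD5 replicate 2 lowest. Rps20 was at 62.3, 63.5 and 68.0 CPM in EBD2, 70.0, 176 and 75.3 CPM in EBD5, and 79.4, 60.1 and 62.1 CPM in EBD6, with EBD5 replicate 2 highest. Rps29 was at 69.6, 68.3 and 70.5 CPM in EBD2, 85.9, 59.8 and 95.2 CPM in EBD5, and 77.0, 40.4 and 41.4 CPM in EBD6. Rpl37 was at 124, 126 and 149.7 CPM in EBD2, 126, 73.6 and 123 CPM in EBD5, and 131, 95.7 and 94.0 CPM in EBD6, and in both genes EBD5 replicate 2 was the lowest of its group. Without EBD5 replicate 2, Rps16 was lower in EBD5 than in EBD2 (log2 fold change -1.80, adjusted p = 3.0e-05, edgeR) and higher in EBD6 than in EBD5 (1.92), whereas with its copies added it was higher in EBD5 than in EBD2 (1.28 ± 0.36). None of the rest of these 10 became called in EBD5 against EBD2 without that library, but Rpl37 and Rplp2 did in EBD6 against EBD2 and Rps29 in EBD6 against EBD5. Rps20 was called higher in EBD5 than in EBD2 without EBD5 replicate 1 (0.95) or EBD5 replicate 3 (0.92).

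In EBD6, replicate 1 was above replicates 2 and 3 by more in short genes than in long ones. The 12 members more than 1.5-fold above were Rpl17, Rpl22l1, Rpl29, Rpl35, Rpl36, Rpl36a, Rpl38, Rpl41, Rps7, Rps16, Rps25 and Rps29. Across the 83 members the rank correlation of this ratio with coding length was -0.532, given without a p since the points share their libraries. For EBD5 replicate 2 it was 0.204. Rpl10l and Rpl3l, of the lowest counts, were the 2 members more than 1.5-fold below in EBD6 replicate 1.

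**Figure D5:**
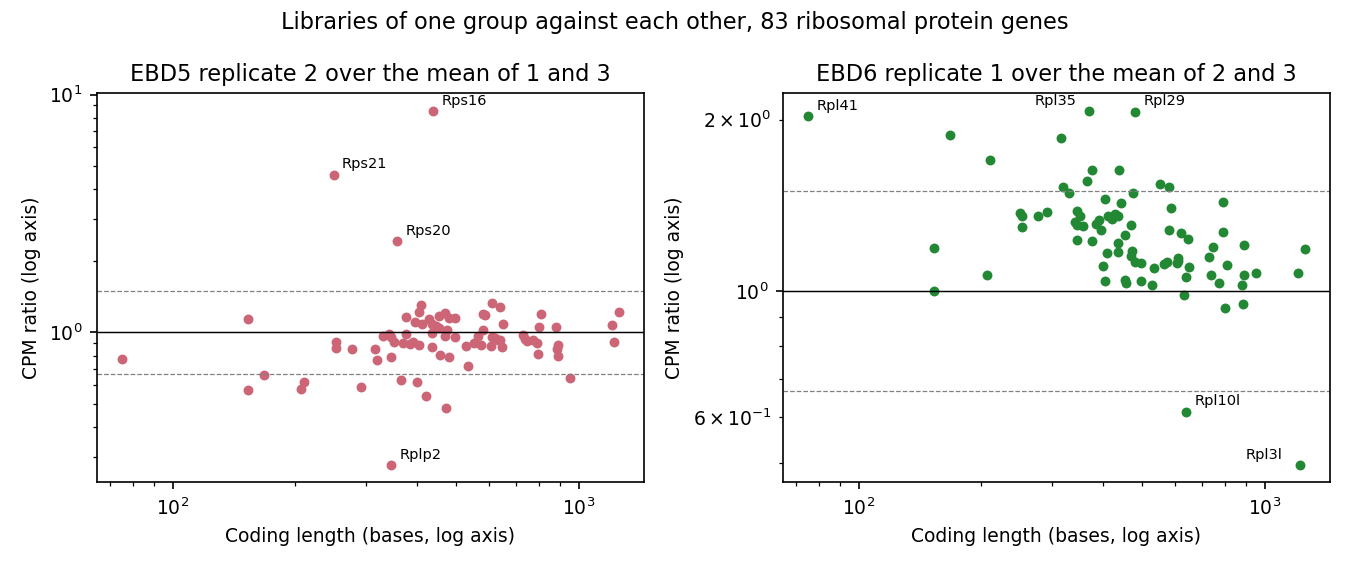
Ratio of CPM in 1 library to the mean of the other 2 of its group, on log axes against coding length, for EBD5 replicate 2 (left) and EBD6 replicate 1 (right). Each point is 1 of the 83 genes and the dashed lines mark 1.5-fold; on the left Rps16, Rps21 and Rps20 lie far above, and on the right most points lie above 1, with a median of 1.23.

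The genes of the ribosomal stalk did not share a call. Rplp0, the stalk's base, was at 269.6, 277 and 296 CPM in EBD2, 540.3, 341 and 521 CPM in EBD5, and 300.1, 276 and 282 CPM in EBD6 and rose by 0.71 ± 0.16 in EBD5 against EBD2 (adjusted p = 0.0021, edgeR), whereas Rplp1 (-0.18 ± 0.13) and Rplp2 (-0.66 ± 0.35) were not called. Rplp1 was at 155, 148 and 203 CPM in EBD2, 161, 154 and 154 CPM in EBD5, and 198, 149 and 151 CPM in EBD6.

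Rpl5 and Rpl11 bind Mdm2 together with the 5S ribosomal RNA. Rpl5 was at 219, 212 and 279 CPM in EBD2, 455, 364 and 458 CPM in EBD5, and 160.0, 132 and 134 CPM in EBD6 and rose by 0.78 ± 0.13 in EBD5 against EBD2. Rpl11 was at 114, 122 and 145 CPM in EBD2, 189, 145 and 211 CPM in EBD5, and 129, 124 and 111 CPM in EBD6 and rose by 0.47 ± 0.14. The EBD2 and EBD5 samples overlapped in Rpl11 and not in Rpl5. Rpsa, also known as the laminin receptor, was at 204, 213 and 275 CPM in EBD2, 657, 557 and 653 CPM in EBD5, and 195, 206 and 204 CPM in EBD6 and rose by 1.36 ± 0.12 (adjusted p = 1.8e-06, edgeR).

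Rps19, the gene most often mutated in Diamond-Blackfan anaemia, was at 133, 138 and 150.2 CPM in EBD2, 169, 182 and 166 CPM in EBD5, and 125, 107 and 107 CPM in EBD6, a small rise of 0.27 ± 0.08 (adjusted p = 0.011, edgeR) before it fell by 0.58 ± 0.08 from EBD5 to EBD6. Its EBD6 libraries lay below those of EBD2. Rps3, which also acts in DNA repair, was at 501, 544 and 625 CPM in EBD2, 690.3, 684 and 712 CPM in EBD5, and 521, 448 and 460.1 CPM in EBD6 and rose by 0.27 ± 0.09 (adjusted p = 0.019, edgeR), a call lost without EBD5 replicate 3. Rps27a, which encodes ubiquitin joined to a small subunit protein, was at 109, 115 and 126 CPM in EBD2, 275, 273 and 290.3 CPM in EBD5, and 116, 87.9 and 89.5 CPM in EBD6 and rose by 1.23 ± 0.10 (adjusted p = 1.3e-06, edgeR). Fau and Rack1 are genes of the ribosome with symbols outside the rule. Fau, a ubiquitin-like fusion of a small subunit protein, was at 102, 92.3 and 50.2 CPM in EBD2, 85.7, 119.6 and 87.3 CPM in EBD5, and 83.8, 58.4 and 54.6 CPM in EBD6. Fau (0.34 ± 0.24) and Rack1 (0.15 ± 0.10) were not called in EBD5 against EBD2.

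The GC content of the members over merged exons ran from 42.7% to 61.0% with a median of 50.5%, beside 49.7% for all tested protein-coding genes. Its rank correlation with the log2 fold change across the 83 members was -0.131 in EBD5 against EBD2, 0.223 in EBD6 against EBD5 and 0.108 in EBD6 against EBD2. Across 13746 protein-coding genes it was -0.364, 0.565 and 0.177. The points share all libraries and no p is given. Of the 42 members at or above the median GC content, 27 were higher in EBD5 than in EBD2 (median log2 fold change 0.68), and of the 41 below it, 29 were (median 0.81). In EBD6 against EBD5, 28 of the 42 were lower (median -0.67) and 36 of the 41 (median -1.04). The GC content of the coding sequence gave rank correlations of -0.248 in EBD5 against EBD2, 0.378 in EBD6 against EBD5 and 0.172 in EBD6 against EBD2. The members are short, with a median coding length of 456 bases beside 1392.

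Start sites were read for the TOP tract that these mRNAs are known for. RefSeq windows around the start (GRCm38.p6) were found for 63 of the 83 members. In 27 of them (42.9%), a C within 5 bases of the start was followed directly by at least 4 further C or T. The same held for 18.3% of all 32851 RefSeq windows, each read on the gene's strand. The base before that C was not checked, so a pyrimidine stretch can begin further upstream. The RefSeq start lay a median of 20 and up to 575 bases from the GENCODE start, so tracts at other start sites are missed. Of the 25 members' windows with a start within 10 bases of the GENCODE start, 8 held the run. Windows are shown from 10 bases before to 20 bases from the start, for 2 genes that rose and 2 paralogs that fell. The run, from that C on, is in capitals. They are chr2:26910797-26910826 on the plus strand, chr16:55966265-55966294 on the plus strand, chr16:10170218-10170247 on the plus strand and chr12:66284382-66284411 on the minus strand.
Rpl7a: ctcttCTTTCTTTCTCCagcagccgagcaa
Rpl24: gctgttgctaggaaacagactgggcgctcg
Rpl39l: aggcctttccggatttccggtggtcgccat
Rpl10l: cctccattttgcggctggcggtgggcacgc
The run was found in 17 of 42 members that were higher in EBD5 than in EBD2, in 4 of 8 that were lower and in 6 of 13 that were not called.

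Other mRNAs with a TOP tract moved like the members in part. Of 16 tested, 8 rose and 4 fell in EBD5 against EBD2 (median log2 fold change 0.31), and 1 rose and 12 fell in EBD6 against EBD5 (median -0.72). Over all tested genes, 34.9% were higher and 35.1% lower in EBD5 against EBD2, and 36.9% and 33.3% in EBD6 against EBD5. The counts of the lists below are to be read beside these shares. Tpt1, a translationally controlled growth protein, was at 141, 141 and 181 CPM in EBD2, 539, 607 and 517 CPM in EBD5, and 114, 90.5 and 93.3 CPM in EBD6. The elongation factor Eef1a1 was at 825, 855 and 918 CPM in EBD2, 3096, 2709 and 3118 CPM in EBD5, and 859.7, 721 and 740.5 CPM in EBD6. They rose by 1.79 ± 0.12 and 1.75 ± 0.11 in EBD5 against EBD2, and both fell in EBD6 against EBD5 (-2.44 ± 0.13 and -1.90 ± 0.11). Npm1, a nucleolar chaperone, fell in EBD5 (-0.74 ± 0.16) and fell again in EBD6 (-0.57 ± 0.16).

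Most of the genes listed as ribosome biogenesis factors were lower in EBD5 than in EBD2. Of 40 biogenesis factors, 5 rose and 24 fell in EBD5 against EBD2 (median log2 fold change -0.38), led by Rrp12 (-1.34 ± 0.08), Rrp9 (-0.91 ± 0.07) and Bysl (-0.84 ± 0.06), while Nop10 (0.78 ± 0.13) and Fbl (0.69 ± 0.17) rose. In EBD6 against EBD5, 16 rose, a share near the 36.9% of all tested genes, and 8 fell, beside 33.3%. Of 15 import factors and chaperones of ribosomal proteins, 2 rose and 9 fell in EBD5 against EBD2, Ipo4 the most (-0.75 ± 0.11). Of 16 genes of RNA polymerase I and 5S transcription, 3 rose and 6 fell, among them Ubtf (-0.92 ± 0.06), a share of falls near the 35.1% of all tested genes.

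The regulators were mostly lower in EBD5 too. Of 16 genes of the mTOR and LARP control of TOP mRNAs, 3 rose and 11 fell in EBD5 against EBD2 (median log2 fold change -0.47), with the mTOR inhibitors Akt1s1 (-0.69 ± 0.11) and Deptor (-0.67 ± 0.06) among those that fell and Larp4 (0.80 ± 0.07) among those that rose. Of 10 genes of the Myc family 1 rose and 7 fell. Myc was at 29.9, 29.6 and 24.7 CPM in EBD2, 16.6, 14.5 and 13.1 CPM in EBD5, and 59.4, 58.0 and 57.5 CPM in EBD6, lowest in EBD5 and highest in EBD6 in every library. It fell by 0.92 ± 0.12 in EBD5 against EBD2 (adjusted p = 5.6e-05, edgeR) and rose by 2.0 ± 0.11 from EBD5 to EBD6 (adjusted p = 1.1e-07, edgeR), against the direction of most ribosomal protein genes.

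Initiation factors and the mitochondrial ribosome had no common direction. Of 33 initiation factors, 12 rose and 14 fell in EBD5 against EBD2 (median log2 fold change 0.04), with Eif2s2 (0.84 ± 0.11) and Eif3g (-1.07 ± 0.11) at the ends. Both shares were not far from the 34.9% and 35.1% of all tested genes. Eif6, which keeps new large subunits from joining small ones, fell by 0.59 ± 0.08 and rose from EBD5 to EBD6 (adjusted p = 6.8e-08, edgeR). Of 78 mitochondrial ribosomal protein genes, 18 rose and 30 fell in EBD5 against EBD2 (median -0.17), from Mrps15 (-1.29 ± 0.11) to Mrps33 (2.01 ± 0.14). Their share of falls was near the 35.1% of all tested genes. Of 13 genes of ribosome rescue and decay, 3 rose and 6 fell, with Gtpbp1 (-1.06 ± 0.07) and Rnf14 (0.71 ± 0.06) at the ends.

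Markers of the cell types that embryoid bodies can hold moved between the same groups. All 8 visceral endoderm and all 8 primitive and parietal endoderm markers rose in EBD5 against EBD2, the latter from 299.7 to 317 CPM summed in EBD2 to 2547 to 2647 in EBD5 and 2652 to 2812 in EBD6. The 8 pluripotency markers summed to 1769 to 1971 CPM, 1193 to 1278 and 1157 to 1290.2 CPM in EBD2, EBD5 and EBD6, with 2 higher and 4 lower in EBD5 against EBD2. The 5 formative epiblast markers summed to 858 to 934 CPM in EBD2, 929.9 to 969 in EBD5 and 464 to 469 in EBD6. Of these, Fgf5 and Otx2 rose and Pou3f1 and Lef1 fell in EBD5 against EBD2. The 6 nascent mesoderm markers summed to 33.3 to 42.6, 148 to 156 and 116 to 127 CPM in EBD2, EBD5 and EBD6. Eomes made up most of that sum, at a mean of 27.6, 132 and 65.4 CPM. Of the 5 tested, 3 rose and 1 fell in EBD5 against EBD2, and T, Mixl1 and Fgf8 were highest in EBD6. Neuroectoderm markers (5 genes) summed to 144 to 153, 67.7 to 75.8 and 184 to 189 CPM in EBD2, EBD5 and EBD6, lowest in EBD5. In EBD5 against EBD2, 3 of them fell (Sox1, Pax6 and Tubb3), Six3 rose and Zic1 was not called. Blood and endothelium markers (9 genes) summed to 162 to 169, 72.1 to 75.8 and 182 to 205 CPM in EBD2, EBD5 and EBD6. Pecam1 made up most of that sum in EBD2 and EBD5, at a mean of 152 and 60.2 CPM. Of the 6 tested, 4 rose in EBD5 against EBD2, namely Cdh5, Kdr, Gata1 and Gata2, and Pecam1 and Tal1 fell. The 6 trophoblast markers summed to 0.890 to 1.98 CPM in EBD2, 6.48 to 9.02 in EBD5 and 94.2 to 99.1 in EBD6, and the 6 fibroblast markers to 32.2 to 33.6, 23.0 to 28.6 and 55.3 to 59.9 CPM. The 5 cardiac muscle markers summed to between 9.41 and 18.6 CPM in all libraries. The part of these cell types in the ribosomal protein levels was not tested.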

How the data were processed

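The values are expected counts per gene, taken from 1 deposited table of 9 libraries. A second deposited table also holds the EBD6 libraries, with the same values in all 54233 rows. The tools named in the submitters' processing notes are STAR 2.7.10a and RSEM 1.3.30 with build mm10, cutadapt 1.18, DESeq2 1.38.3 and edgeR 3.40.2. RSEM shares reads that fit several places among them by an estimate. How the estimate treated each copy is not given in the sources used here. Rows that name no gene, at most 0.0157% of a library, were left out.

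Expected counts were rounded to whole numbers. A chi-square test of the counts gave 0.949 per gene between EBD2 replicates 1 and 2, and 1.01 between EBD6 replicates 2 and 3 (p = 0.169). Both pairs agreed within sampling noise and were summed. The 7 samples leave 4 residual degrees of freedom, and the biological coefficient of variation common to all genes was 6.72%. Genes passing edgeR's filterByExpr were fitted in 1 model of all 3 groups with TMM scaling and edgeR's quasi-likelihood test (edgeR 4.0.16, R 4.3.3), and were called at a Benjamini-Hochberg adjusted p under 0.05 over all tested genes. Standard errors are the log2 fold change over the square root of F. The fit was tested on simulated data. Depth is given with the libraries, and no interval for counting error is printed.

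Names and coding sequences came from GENCODE M21, which held 54079 of the 54232 gene IDs. Copies were pseudogenes that matched a member's spliced transcripts, untranslated parts included. A match needed at least 80% identity over at least 50% of the copy (BLAST+ 2.17.0+). Start windows came from RefSeq and alignments from Biopython 1.88.

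Given with all values were the 6 largest called rises and falls per comparison, genes called nowhere or against the majority, paralogs, a set of well-known members, up to 3 genes a direction of each list and the 5 most abundant copies. Values of some genes under this rule are not reported here. The members and lists were chosen with earlier results of these data known. Alternatives covered the normalisation, the test (DESeq2 1.42.0, limma 3.58.1), the filter, the samples in the fit, a replicate block, a fold threshold, summing with copies, bins of GC content and length, and leaving out each library.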

Additional observations from a re-analysis of the deposited data

How the results depend on the processing

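The count of higher genes in EBD5 against EBD2 and that of lower genes in EBD6 against EBD5 stayed within 1.5-fold under all 22 alternatives. Leaving out each library gave 55 to 60 higher and 6 to 9 lower in EBD5 against EBD2 (median 0.73 to 0.78), 3 to 5 higher and 63 to 66 lower in EBD6 against EBD5 (median -1.08 to -0.93), and 6 to 8 higher and 21 to 43 lower in EBD6 against EBD2 (median -0.39 to -0.16). The 21 came without EBD2 replicate 3. The share of counts ranged over 1.383% to 1.48%, 2.10% to 2.17% and 1.11% to 1.21%, and that of copies over 0.0425% to 0.0514%, 0.232% to 0.234% and 0.0382% to 0.0422%, in EBD2, EBD5 and EBD6. The cause of the changes below was not tested, apart from what each setting alters by construction.

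Counts of lower genes in EBD5 against EBD2 were 14 with no filter, 4 against a fold of 1.5 and 5 with copies added. Counts of higher genes in EBD6 against EBD5 were 2 with DESeq2, with only the groups compared, against a fold of 1.5 and with GC and length bins. In EBD6 against EBD2 they were 4 with DESeq2 and with the bins, and 0 by edgeR against a fold of 1.5 (1 at an unadjusted p under 0.05), where 7 were lower. Protein-coding genes as the denominator gave a share of 2.26% in EBD5, and stricter copies (90% identity over 80% of the member) gave 0.0243%, 0.0991% and 0.0220%. With copies added, Rpl12 was at 0.38 and Rpl14 at 0.35 in EBD5 against EBD2, and Rps14 at -0.047 in EBD6 against EBD5, or -0.30 in the bins.

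The labels state no pairing of same-numbered libraries. The correlations of their deviations from the group mean ran from -0.105 to 0.0620, beside -0.102 to 0.140 for libraries of different numbers. With so few libraries per group, these values cannot decide whether same-numbered libraries shared a batch or culture. With a replicate block over 9 separate libraries, 61 members were higher and 10 lower in EBD5 against EBD2 (median 0.79), 4 and 67 in EBD6 against EBD5 (-1.01), and 8 and 45 in EBD6 against EBD2 (-0.27). All 22 alternatives kept 43 of the 64 calls in EBD5 against EBD2, 47 of 68 in EBD6 against EBD5 and 7 of 42 in EBD6 against EBD2.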
